A study of Mus musculus with 138 samples.

Results

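The coronal suture lies between the frontal and the parietal bone of the skull vault. Each bone meets it in an osteogenic front (OF), the growing edge where osteoprogenitors become osteoblasts, and suture mesenchyme (SM) separates the bones. The 20 first laser-captured libraries of these fronts, of 138 libraries in the series, were chosen by suture, region and age: frontal OF and parietal OF at embryonic (E) day E16.5 and at E18.5, with 5 wild-type (WT) C57BL/6J embryos in each group. The labels named no other allele, agent or treatment, so that age and litter were the labelled differences within an OF. Both OFs and the SM of 1 embryo shared a replicate number. By the litter labels, read here as a litter name followed by an embryo number, the E16.5 embryos came from 3 litters, of 3, 1 and 1 embryos, and the E18.5 embryos from 2 other litters, of 3 and 2 embryos, so that age and litter cannot be told apart. RNA of each captured region was amplified before Nextera XT libraries were made. Second libraries of 3 of the 5 embryos in each group (12 OF libraries in all) were used as a further reading of the same embryos; how they were made is not given in the sources used here.

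The frontal and parietal bones form directly in mesenchyme, without a cartilage model. RUNX2 and then SP7 commit a progenitor to the osteoblast fate, the young osteoblast secretes type I collagen and bone sialoprotein, and the sheet of matrix is then mineralized and covered by a fibrous periosteum. BMP, WNT, hedgehog and FGF ligands set the pace of this sequence at the OFs, and a change in dosage of several of their components closes the coronal suture early. A captured front also holds vessels with their pericytes, osteoclasts, macrophages and fibroblasts.

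The first libraries held 20713756 to 34518477 counts, and in all of them the summed osteoblast markers lay above those of every coronal SM library of the same age. Runx2, Sp7, Ibsp, Alpl, Col1a1 and Bglap together made up 34871 to 64948 CPM (counts scaled to a total of 1000000, here of non-mitochondrial counts) in the frontal OF at E16.5 and 21730 to 38451 CPM at E18.5, and 46320 to 57146 CPM against 36677 to 58742 CPM in the parietal OF. The same sum was 10023 to 15585 CPM at E16.5 and 11615 to 14372 CPM at E18.5 in the SM. Bglap (osteocalcin), the marker of mature osteoblasts, was at 0 to 0.737 CPM in the frontal and 0 to 0.264 CPM in the parietal OF at E18.5. Mitochondrial genes took 30.6% to 52.4% of the counts in the frontal OF at E16.5 and 21.5% to 25.3% at E18.5, and 34.2% to 42.7% against 21.5% to 27.5% in the parietal OF. The ages did not overlap in either OF (two-sided exact permutation test of 5 against 5, p = 0.00794; this is the smallest p the design allows; Benjamini-Hochberg adjusted over 19 properties, 0.0215 and 0.0503). In the second libraries of the same embryos the mitochondrial share was 12.02% to 15.1% in the frontal OF and 13.4% to 16.52% in the parietal OF at both ages together. More genes had a count at E18.5, with 21273 to 24819 against 17274 to 22824 in the frontal OF and 21519 to 24017 against 18674 to 21660 in the parietal OF (adjusted exact permutation p = 0.0335 and 0.0566). In the second libraries the numbers were 21887 to 23177 against 20781 to 22213 in the frontal OF, but 19333 to 21491 against 20476 to 23017 in the parietal OF. E16.5 embryo 5 stood apart in the frontal OF by its total and its mitochondrial share, and E18.5 embryo 2 by high levels of osteoblast genes in both OFs.

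**Figure D1:**
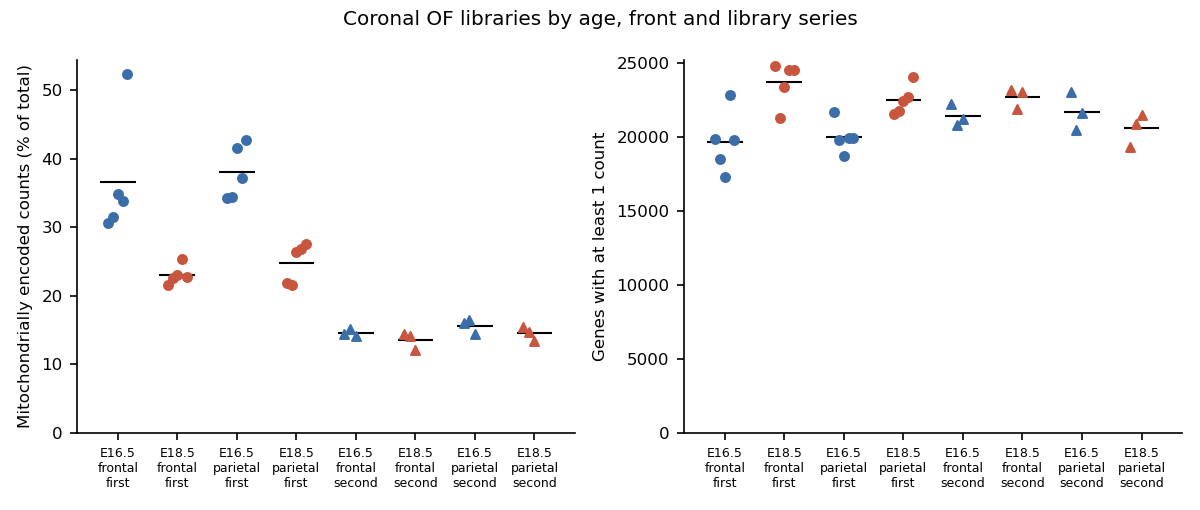
Mitochondrial share of counts (percent, left) and genes with at least 1 count (right) in each coronal OF library by age, with first libraries as circles, second libraries as triangles and lines at the group means. Mitochondrial shares of the first libraries were 30.6% to 52.4% at E16.5 and 21.5% to 25.3% at E18.5 in the frontal OF, whereas second libraries of both ages lay at or below 16.52% in both OFs.

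The comparison asked which transcripts of the OFs change late in gestation, between E16.5 and E18.5, and whether both OFs change alike. Each gene was tested by the quasi-likelihood test of edgeR in a fit of all 100 first libraries of the series and again in a fit of the coronal libraries by themselves. The second fit was needed because the coronal libraries varied more: the median SD of log2 CPM over genes was 0.50 to 0.95 in the 4 OF groups, against 0.26 to 0.61 in the 14 groups of other sutures. A gene is said below to have risen or fallen only where the adjusted p was under 0.05 in both fits. Fold changes and standard errors (SE) are log2 values, E18.5 less E16.5, from the 100-library fit. Pairs of adjusted p give the 100-library fit first and the coronal fit second. CPM of single genes, except Xist and Ddx3y, are scaled by the TMM method. The 5 libraries of a group stand in the order of their replicate numbers. Summed marker levels are CPM of non-mitochondrial counts without TMM, and Xist and Ddx3y are also given without TMM. How much of a change in a summed level came from the scaling was not tested.

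Of 19768 genes tested, 357 rose (1.81%) and 641 fell (3.24%) in the frontal OF, and 230 rose (1.16%) and 337 fell (1.7%) in the parietal OF. Both OFs shared 99 genes that rose (0.501%) and 195 that fell (0.986%), 11 of the latter encoded by the mitochondrial genome. The shared genes were 27.7% of the frontal and 43.0% of the parietal genes that rose, and 30.4% of the frontal and 57.9% of the parietal genes that fell. Only Pecam1 and Epas1 (0.0101%) passed in both OFs in opposite directions. By the 100-library fit alone the calls were 2494 higher and 2325 lower (12.6% and 11.8%) in the frontal OF and 2264 higher and 1775 lower (11.5% and 8.98%) in the parietal OF, with 834 higher and 799 lower in both (4.22% and 4.04%). The coronal fit alone added 6 genes to those that fell in the frontal OF (647, or 3.27%) and 2 in the parietal OF (339, or 1.71%). At unadjusted p under 0.05, used below for list members, the coronal edgeR fit had 3741 genes in the frontal and 3206 in the parietal OF, in either direction. Second libraries had the same sign in both OFs for 82 of the 99 shared genes that rose and 122 of the 195 that fell, where 28.8% of all genes were higher and 28.5% lower in both; they come from the same embryos and are not independent.

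The split between directions moved with the libraries fitted, the model and the scaling. Of the genes called in the 100-library fit, 51.8% were higher at E18.5 in the frontal OF and 56.1% in the parietal OF, against 35.6% and 40.4% in the coronal fit, 67.6% and 67.1% by limma-voom, and 90.4% and 81.5% when libraries were scaled by total counts without TMM, which moved the median of all genes to 0.47 and 0.29. No age change of a gene named here that passed both fits turned its direction under these settings. Transcript length also moved with age. Among protein-coding genes, the median exonic length was 3751 bp for the shared genes that rose, 7764 bp for those that fell and 4540 bp for all tested. Over 5 equal classes of protein-coding genes, from the shortest to the longest, the median fold change ran from 0.32 to −0.19 in the frontal OF and from 0.35 to −0.14 in the parietal OF. In the second libraries it ran the other way, from −0.18 to 0.06 and from −0.07 to 0.02. With the length trend of each coronal library removed, 82 of the 99 shared genes that rose and 90 of the 195 that fell were still called, and 57.4% and 62.3% of the genes then called were higher.

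**Figure D2:**
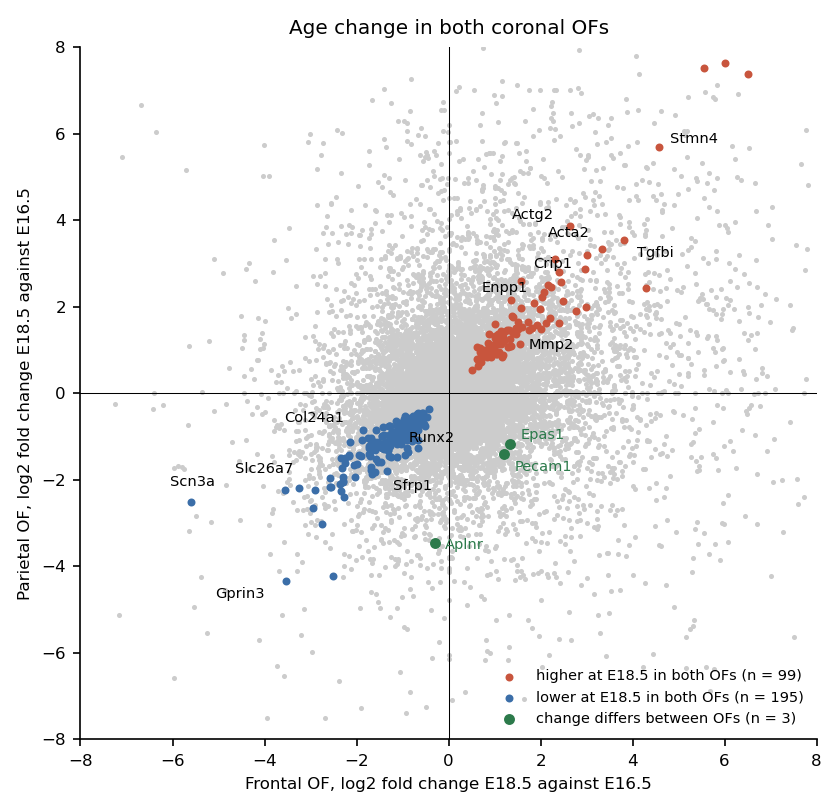
Log2 fold change, E18.5 less E16.5, of each gene tested in the frontal OF (horizontal) and the parietal OF (vertical), from the 100-library fit, with the 99 genes that rose and the 195 that fell in both OFs in colour and the 3 genes whose change differed between OFs in green. Shared genes lie along the diagonal, whereas Pecam1 and Epas1 lie to the right of and below the origin and Aplnr below it; 11 genes lie outside the range of 8 log2 units.

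Of the 34 gene lists examined, the periosteal and fibrous matrix list had the most members that rose in both OFs. The lists were chosen with earlier results of these data known, so that this ranking is not a test. Of all genes tested, 1.81% rose and 3.24% fell in the frontal OF, 1.16% rose and 1.7% fell in the parietal OF, and 0.501% rose and 0.986% fell in both. These shares also stand beside the list counts that follow. Of the 21 genes of the list tested, 9 rose in each OF, 8 of them in both (Postn, Tnc, Tnn, Col3a1, Col6a1, Col6a3, Col12a1 and Thbs2), and none fell (at unadjusted p under 0.05 in the coronal edgeR fit, 13 were higher in the frontal and 12 in the parietal OF and 0 lower). The list's median fold change was 0.82 in the frontal and 0.85 in the parietal OF, beside 0.02 and 0.03 for all genes. In bulk samples, more cells of a type and more RNA per cell cannot be told apart. Postn encodes periostin, a matricellular protein of the periosteum. It measured 1057, 1187, 1385, 1053 and 1795 CPM at E16.5 and 2331, 2379, 2176, 2868 and 2113 CPM at E18.5 in the frontal OF. In the parietal OF it measured 1380.1, 470.4, 558, 782 and 927 CPM at E16.5 and 1712, 1638, 2364, 3065 and 1747 CPM at E18.5. Every E18.5 library lay above every E16.5 library in both OFs. Postn changed by 0.87 ± 0.19, adjusted p = 0.00024 and 0.019 in the frontal OF and by 1.35 ± 0.19, adjusted p = 6.8e-08 and 0.0011 in the parietal OF, and both calls were lost with counts summed by litter. The second libraries gave 0.83 and 1.55.

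Tnn (tenascin-N, also called tenascin-W), a glycoprotein found in periosteum and around osteoblasts, measured 319.8, 738, 603, 612 and 683 CPM at E16.5 and 1087, 2117, 1509.7, 1664 and 1751 CPM at E18.5 in the frontal OF. Parietal levels were 369, 963, 916, 774 and 674 CPM at E16.5 and 1651, 1997, 2152, 2183 and 2505 CPM at E18.5. The ages were again separate in both OFs. Tnn changed by 1.46 ± 0.21, adjusted p = 1.6e-07 and 0.00025 in the frontal OF and by 1.505 ± 0.21, adjusted p = 1.2e-07 and 0.00048 in the parietal OF. Its relative Tnc (tenascin-C) rose in both as well. Tnc changed by 0.62 ± 0.14, adjusted p = 0.00042 and 0.01 in the frontal OF and by 1.06 ± 0.14, adjusted p = 1.5e-08 and 0.00019 in the parietal OF. Col3a1, the fibrillar collagen of loose connective tissue, was at 1979 to 2976 CPM in the frontal OF at E16.5 and 3711 to 5364 CPM at E18.5. It was at 1663 to 2008 against 2915 to 3987 CPM in the parietal OF, again without overlap. Col3a1 changed by 0.85 ± 0.14, adjusted p = 1.5e-06 and 0.00019 in the frontal OF and by 0.85 ± 0.14, adjusted p = 2.2e-06 and 0.00051 in the parietal OF. Among the collagens that bind to fibril surfaces or form beaded filaments, Col12a1, Col6a1 and Col6a3 changed by 0.69, 0.78 and 0.82 in the frontal and 1.04, 0.99 and 0.93 in the parietal OF. The frontal calls of Col6a1 and Col6a3 were lost in the coronal fit when E18.5 embryo 2 was left out. Fbn1 (fibrillin-1) rose in the frontal OF (1.70 ± 0.24, adjusted p = 7.1e-08 and 0.00014) and had 0.50 ± 0.23 in the parietal OF (adjusted p = 0.115 and 0.35).

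Among enzymes that degrade matrix, Mmp2 and the inhibitor Timp1 rose in both OFs. Of 10 matrix metalloproteinases and inhibitors tested, 4 rose and 1 fell in the frontal OF and 3 rose in the parietal OF, with list medians of 0.63 and 0.23. For all genes, 1.81% rose and 3.24% fell in the frontal OF and 1.16% rose and 1.7% fell in the parietal OF. Mmp2 (gelatinase A) measured 219.9, 313, 358, 203 and 91.1 CPM at E16.5 and 604, 839.7, 651, 595 and 591 CPM at E18.5 in the frontal OF. Values in the parietal OF were 169, 185, 158, 210.3 and 94.7 CPM at E16.5 and 411, 524, 498, 461 and 428 CPM at E18.5. No library of one age reached the range of the other. Mmp2 changed by 1.47 ± 0.19, adjusted p = 7.8e-09 and 0.00081 in the frontal OF and by 1.51 ± 0.19, adjusted p = 8.2e-09 and 0.0013 in the parietal OF. Timp1, an inhibitor of these enzymes, was at 15.9 to 30.5 CPM against 37.4 to 115 CPM in the frontal OF and 20.5 to 47.7 against 81.3 to 144 CPM in the parietal OF. It rose in both (1.38 and 1.77), but its second libraries gave 0.07 in the frontal OF, and its frontal call was lost with the length trend removed. The frontal OF also had higher Mmp23 (1.85 ± 0.28, adjusted p = 3.2e-07 and 0.0011) and Mmp11 (2.17 ± 0.37, adjusted p = 6.5e-06 and 0.0497, lost with either outlying embryo left out and with the length trend removed), and lower Mmp16, a membrane-bound metalloproteinase (−0.94 ± 0.17, adjusted p = 2.3e-05 and 0.0062, lost with the length trend removed). Mmp9 (gelatinase B), an osteoclast product, rose in the parietal OF (3.28 ± 0.95, adjusted p = 0.0087 and 0.039, lost with either outlying embryo left out).

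Collagen-modifying enzymes that passed in the parietal OF were all higher. Of 18 collagen processing and crosslinking genes, Plod3, a lysyl hydroxylase, and P4ha3, a prolyl 4-hydroxylase subunit, rose in both OFs (frontal 1.02 and 0.90, parietal 1.26 and 0.88), and both calls of Plod3 were lost without E18.5 embryo 2, the frontal one also without E16.5 embryo 5. Plod2, which hydroxylates lysines for bone-type crosslinks, rose in the parietal OF (0.85 ± 0.15, adjusted p = 2.0e-05 and 0.024), and Loxl4, a lysyl oxidase-like enzyme, fell in the frontal OF (−1.49 ± 0.41, adjusted p = 0.0046 and 0.0026). The list medians were 0.16 and 0.60. By the 100-library fit alone 3 were higher and 2 lower in the frontal and 10 higher and 0 lower in the parietal OF, and at unadjusted p under 0.05 in the coronal edgeR fit 3 and 2 in the frontal and 9 and 0 in the parietal OF. For all genes the 100-library fit had 12.6% higher and 11.8% lower in the frontal and 11.5% and 8.98% in the parietal OF. At that unadjusted p, 3741 and 3206 of all 19768 genes passed, in either direction. Of 11 proteoglycans of the decorin family, Dcn rose (1.24) and Omd and Chad fell (−1.06 and −1.77) in the frontal OF, Aspn rose in the parietal OF (0.79), and the list medians were −0.16 and 0.55. Dcn and Chad lost the call without E18.5 embryo 2, Dcn and Omd without E16.5 embryo 5, Aspn with the length trend removed, and Omd also with total counts in place of TMM and in the 100-library fit without E16.5 replicate 5.

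By the rule for shared genes, the 12 named genes with the largest smaller fold change among those higher in both OFs, without overlap of the ages, were Stmn4, Tgfbi, Acta2, Ptx4, Crip1, C1qtnf3, Actg2, S100a4, Plekhf1, Ndst3, Tcim and Adamtsl4. The rule passed 135 genes on the 100-library fit, 75 of which also passed the coronal fit. Libraries of the 2 ages did not overlap for 0.835% of all genes with higher and 1.12% with lower values in both OFs. Of the 12 named genes, Ptx4 in the parietal OF, S100a4 in the frontal OF and Tcim in both did not pass the coronal fit (adjusted p = 0.07, 0.125, 0.13 and 0.084).

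Tgfbi (chromosome 13, 56609523 to 56639562 in mm10) encodes a secreted matrix protein named for its induction by TGF-beta. It measured 6.39, 13.5, 2.65, 11.8 and 5.09 CPM at E16.5 and 68.2, 106, 97.8, 112 and 176 CPM at E18.5 in the frontal OF. Its parietal values were 8.39, 14.4, 30.01, 8.66 and 3.03 CPM at E16.5 and 69.2, 75.8, 175, 195 and 230.5 CPM at E18.5. The ages were far apart in both OFs. Tgfbi changed by 3.82 ± 0.44, adjusted p = 2.1e-10 and 5.5e-05 in the frontal OF and by 3.53 ± 0.43, adjusted p = 3.0e-09 and 0.00024 in the parietal OF. Second-library values were 3.06 and 2.72. The SM was at 0.252 to 37.3 CPM at E16.5 and 155 to 311 CPM at E18.5, and the OF change less the SM change was −0.01 (adjusted p = 1 and 1).

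Acta2 (chromosome 19, 34241090 to 34255590), the alpha-actin of smooth muscle and myofibroblasts, measured 3.17, 24.97, 17.2, 32.5 and 17.97 CPM at E16.5 and 151, 267, 140.0, 182 and 229 CPM at E18.5 in the frontal OF. Levels in the parietal OF were 8.44, 46.2, 32.8, 9.40 and 21.9 CPM at E16.5 and 188, 245, 329, 243 and 189 CPM at E18.5. Every E18.5 library lay above every E16.5 library of the same OF. Acta2 changed by 3.34 ± 0.36, adjusted p = 2.3e-11 and 5.6e-05 in the frontal OF and by 3.33 ± 0.36, adjusted p = 5.3e-11 and 0.00019 in the parietal OF. The second libraries gave 2.45 and 2.73. The smooth muscle gamma-actin Actg2 rose as well, from 0.468 to 6.12 CPM to 9.90 to 24.3 CPM in the frontal OF and from 0.089 to 2.95 CPM to 9.48 to 26.1 CPM in the parietal OF. Actg2 changed by 2.64 ± 0.46, adjusted p = 7.5e-06 and 0.016 in the frontal OF and by 3.87 ± 0.49, adjusted p = 5.1e-09 and 0.0018 in the parietal OF. The 12 pericyte and smooth muscle markers, Acta2 among them, summed to 289 to 738 CPM at E16.5 and 1233 to 2140 CPM at E18.5 in the frontal OF, and to 325 to 609 CPM and 864 to 1131 CPM in the parietal OF (adjusted exact permutation p = 0.0215 and 0.0503). Myh11, the defining myosin of mature smooth muscle, was at 75.9, 11.4, 4.65, 51.7 and 72.4 CPM in the frontal but at 2.60, 3.04, 0.923, 2.59 and 2.21 CPM in the parietal OF at E18.5, and the smooth muscle markers Tagln and Des were at 1.197 to 1.79 CPM and 0.549 to 2.76 CPM in the frontal OF at that age. The part of mural cells in the Acta2 difference was not tested.

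Crip1 (chromosome 12, 113146316 to 113153879), a small LIM-domain protein, measured 5.07, 14.5, 4.39, 4.57 and 15.6 CPM at E16.5 and 39.4, 135, 54.9, 45.8 and 80.5 CPM at E18.5 in the frontal OF. Parietal values were 6.61, 13.1, 15.9, 6.40 and 12.2 CPM at E16.5 and 73.7, 144, 97.7, 81.7 and 97.3 CPM at E18.5. The ages were separate in both OFs. Crip1 changed by 3.01 ± 0.32, adjusted p = 5.4e-12 and 5.5e-05 in the frontal OF and by 3.19 ± 0.32, adjusted p = 1.1e-12 and 0.00012 in the parietal OF. The second libraries gave the smaller values 1.65 and 1.19, and both calls were lost with second libraries in place of the first. C1qtnf3, a secreted protein of the C1q and TNF family, was at 0 to 15.9 CPM against 22.003 to 75.4 CPM in the frontal and 1.24 to 33.1 against 57.6 to 205 CPM in the parietal OF (2.97 ± 0.48, adjusted p = 2.7e-06 and 0.011 and 2.87 ± 0.47, adjusted p = 4.9e-06 and 0.02); both calls were lost when E16.5 embryo 5 was left out. Stmn4 (chromosome 14, 66344296 to 66361680), a tubulin-binding stathmin, was near 0 at E16.5, with at most 0.806 CPM in either OF. At E18.5 it measured 2.03, 17.6, 5.85, 4.22 and 9.81 CPM in the frontal and 7.13, 21.8, 17.7, 15.97 and 12.4 CPM in the parietal OF, all above the E16.5 libraries. Stmn4 changed by 4.58 ± 0.84, adjusted p = 2.0e-05 and 0.0062 in the frontal OF and by 5.69 ± 0.87, adjusted p = 7.2e-07 and 0.0023 in the parietal OF. Plekhf1, a lysosome-associated protein with PH and FYVE domains, Ndst3, a heparan sulfate sulfotransferase, and Adamtsl4, a secreted fibrillin-binding protein, rose in both OFs, with 2.44, 2.40 and 2.32 in the frontal and 2.56, 2.80 and 3.10 in the parietal OF. The frontal call of Ndst3 was lost without E16.5 embryo 5.

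**Figure D3:**
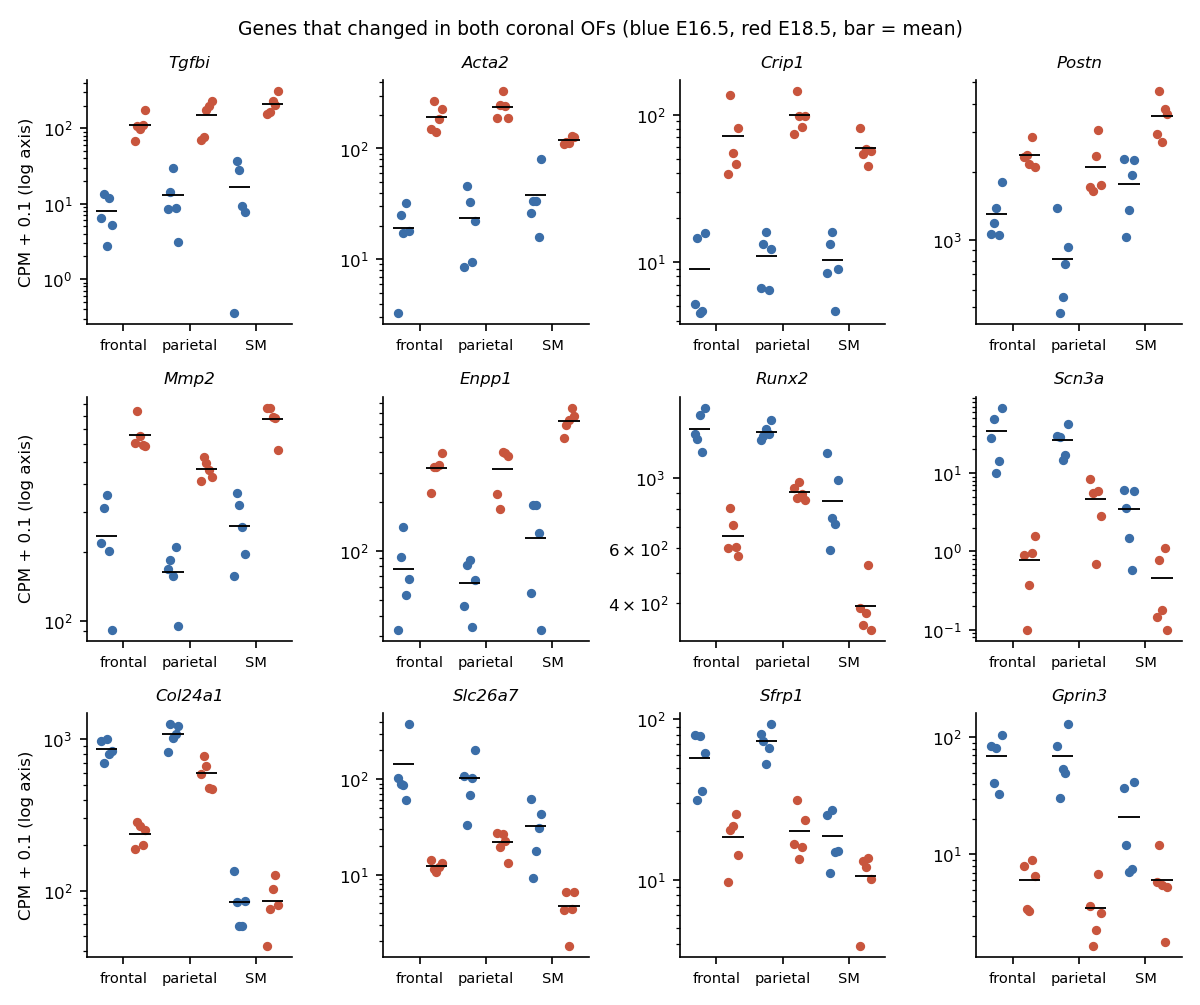
Levels (CPM plus 0.1, log axis) of 12 genes in each first library of the frontal OF, the parietal OF and the SM, with E16.5 in blue, E18.5 in red and bars at the group means. The E18.5 points of Tgfbi, Acta2, Crip1, Postn, Mmp2 and Enpp1 lie above, and those of Runx2, Scn3a, Col24a1, Slc26a7, Sfrp1 and Gprin3 below, all E16.5 points of the same OF.

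Those transcription factors of the osteoblast fate that passed the test were lower at E18.5. Of 13 tested, 4 fell in the frontal OF (Runx2, Dlx3, Dlx5 and Mef2c) and 2 in the parietal OF (Runx2 and Dlx3), and none rose (by edgeR at unadjusted p under 0.05 in the coronal fit, 1 was higher in the frontal and 0 in the parietal OF). The list medians were −0.26 and −0.21. For all genes, 1.81% rose and 3.24% fell in the frontal OF and 1.16% rose and 1.7% fell in the parietal OF. Runx2, the master regulator of the osteoblast lineage, measured 1378, 1335, 1586, 1216 and 1678 CPM at E16.5 and 601, 804, 708, 602 and 567 CPM at E18.5 in the frontal OF. In the parietal OF it measured 1327, 1365, 1437, 1380.0 and 1528 CPM at E16.5 and 930.0, 864, 973, 891 and 853 CPM at E18.5. Both OFs had no overlap between the ages, and the fall was −1.13 ± 0.13, adjusted p = 2.9e-10 and 4.0e-06 in the frontal and −0.64 ± 0.13, adjusted p = 0.0002 and 0.0016 in the parietal OF. The difference between the OFs did not pass (−0.49 ± 0.19, adjusted p = 0.101 and 0.505), and the second libraries gave smaller values of −0.37 and −0.10. The parietal call was lost with second libraries in place of the first, and both calls with second libraries only. Sp7 (osterix), which acts after Runx2, had −0.34 ± 0.29 in the frontal and 0.07 ± 0.29 in the parietal OF, and neither value passed (adjusted p = 0.415 and 0.35 and 0.884 and 0.952). In the frontal OF the sum of the 6 osteoblast markers, Runx2 and Col1a1 among them, was 0.509 times as high at E18.5 (exact permutation p = 0.0238), while the sums of the pericyte and fibroblast markers given below were 3.22 and 2.09 times as high. The parietal ratios were 0.811 (exact permutation p = 0.0714), 1.99 and 1.398. Their part in the lower osteoblast genes was not tested.

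The homeobox factor Dlx3 measured 290.5, 129, 286, 113 and 52.04 CPM at E16.5 and 25.8, 83.8, 32.3, 28.3 and 22.7 CPM at E18.5 in the frontal OF, where the value of 83.8 CPM of E18.5 embryo 2 exceeded the lowest E16.5 value. It fell in both OFs. Dlx3 changed by −2.17 ± 0.51, adjusted p = 0.00091 and 0.00075 in the frontal OF and by −1.43 ± 0.50, adjusted p = 0.031 and 0.029 in the parietal OF. The parietal call of Dlx3 was lost with total counts in place of TMM and in the 100-library fit without replicate 3 or 5 of E18.5. Dlx5 and Mef2c, which regulate late osteoblast and osteocyte genes among others, fell in the frontal OF (−0.69 ± 0.17, adjusted p = 0.0016 and 0.0059 and −1.37 ± 0.23, adjusted p = 3.1e-06 and 0.00026), Dlx5 not with total counts in place of TMM.

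Genes of bone matrix and mineral went different ways. Of 20 tested, 1 rose and 5 fell in the frontal OF and 2 rose and 1 fell in the parietal OF, and the list medians were −0.41 and 0.15. The shares of all genes that rose and fell were 1.81% and 3.24% in the frontal and 1.16% and 1.7% in the parietal OF. Enpp1, the ectoenzyme that makes the mineralization inhibitor pyrophosphate, rose in both OFs. It measured 32.6, 91.5, 140.2, 53.2 and 66.5 CPM at E16.5 and 226, 328, 326, 335 and 398 CPM at E18.5 in the frontal OF. Parietal levels were 45.8, 82.04, 87.9, 34.1 and 65.9 CPM at E16.5 and 221, 181, 403, 398 and 378 CPM at E18.5. The groups did not overlap. Enpp1 changed by 2.07 ± 0.34, adjusted p = 3.2e-06 and 0.00026 in the frontal OF and by 2.32 ± 0.34, adjusted p = 4.7e-07 and 0.00024 in the parietal OF. The second libraries gave 2.41 and 2.96. The SM of the same embryos was at 32.8 to 191 CPM at E16.5 and 487 to 752 CPM at E18.5, and the OF change less the SM change was −0.20 (adjusted p = 0.838 and 0.969).

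Col24a1 (chromosome 3, 145292472 to 145552011), a fibrillar collagen made by osteoblasts in developing bone, measured 969.8, 702, 1008, 800.2 and 833 CPM at E16.5 and 188, 285, 267, 199 and 252.3 CPM at E18.5 in the frontal OF. The parietal OF measured 829.7, 1259, 1018, 1087 and 1218 CPM at E16.5 and 589, 779, 669, 476 and 470.2 CPM at E18.5. It fell in both OFs without overlap. Col24a1 changed by −1.86 ± 0.22, adjusted p = 2.2e-10 and 1.7e-07 in the frontal OF and by −0.86 ± 0.21, adjusted p = 0.0019 and 0.0019 in the parietal OF. Second-library values were −1.38 and −0.65. The SM libraries overlapped, at 58.6 to 134 CPM and 42.9 to 126 CPM, and the OF change less the SM change was −1.38 ± 0.26, adjusted p = 0.00027 and 0.011. Col1a1, the main collagen of bone, fell in the frontal OF (−0.99 ± 0.18, adjusted p = 1.8e-05 and 0.012), where the 30224 CPM of E18.5 embryo 2 lay inside the E16.5 range of 20167 to 47278 CPM and the other 4 E18.5 libraries below it. This call was lost with litter as a random effect, with counts summed by litter and with second libraries in place of the first (adjusted p = 0.057, 0.133 and 0.129). Its parietal value was −0.22 ± 0.18 (adjusted p = 0.399 and 0.656). Panx3, an osteoblast channel protein, and Spock1, a secreted proteoglycan, also fell in the frontal OF (−1.25 ± 0.40, adjusted p = 0.015 and 0.00032 and −2.81 ± 0.79, adjusted p = 0.0054 and 0.0049), Panx3 not in the 100-library fit without E16.5 replicate 5 or with total counts in place of TMM.

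Ibsp (bone sialoprotein), which nucleates mineral, passed in one fit only. It measured 13066, 7232, 9417, 5965 and 8648 CPM at E16.5 and 1958, 4431, 2175, 1892 and 1882 CPM at E18.5 in the frontal OF, without overlap. The parietal ages overlapped, at 8302 to 12323 CPM and 4722 to 11933 CPM. The frontal value of −1.85 ± 0.75 had adjusted p = 0.06 in the 100-library fit and 5.6e-05 in the coronal fit, and the parietal value was −0.48 ± 0.73 (adjusted p = 0.678 and 0.286). Spp1 (osteopontin) rose in the parietal OF (3.03 ± 0.69, adjusted p = 0.00085 and 0.019), with overlapping libraries of 33.3, 11.8, 9.60, 1.06 and 5.09 CPM at E16.5 and 24.9, 103, 32.4, 145 and 192 CPM at E18.5, and lost the call without either outlying embryo and with the length trend removed. Of 6 osteocyte genes tested, Phex, an endopeptidase of osteoblasts and osteocytes whose loss causes phosphate wasting, fell in the frontal OF and none in the parietal OF, with list medians of −0.30 and 0.57. Dmp1, a mineral-binding matrix protein of osteocytes, Pdpn (podoplanin) and Cd44 were higher in the parietal OF in the 100-library fit but did not pass the coronal fit (2.00 ± 0.68, adjusted p = 0.028 and 0.081, 1.13 ± 0.31, adjusted p = 0.0053 and 0.192 and 0.69 ± 0.22, adjusted p = 0.016 and 0.162). At unadjusted p under 0.05 in the coronal edgeR fit, 4 of the 6 were higher and 1 lower in the parietal OF, beside 3206 of all 19768 genes in either direction. Phex measured 173, 91.04, 93.9, 83.04 and 234 CPM at E16.5 and 10.6, 24.98, 11.3, 19.6 and 11.3 CPM at E18.5 in the frontal OF. The ages were separate there (−3.11 ± 0.56, adjusted p = 1.8e-05 and 1.8e-05), while the parietal ages overlapped, at 33.3 to 195.5 CPM and 46.1 to 67.96 CPM (−0.84 ± 0.52, adjusted p = 0.253 and 0.178).

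BMP ligands moved in both directions. Of 25 genes tested of the BMP and TGF-beta pathway, 2 rose and 5 fell in the frontal OF and 4 rose and 2 fell in the parietal OF, with list medians of 0.29 and 0.46. The shares of all genes that rose and fell were 1.81% and 3.24% in the frontal and 1.16% and 1.7% in the parietal OF. Among the ligands, Bmp6 rose in both OFs, from 3.75 to 14.7 CPM to 16.4 to 28.1 CPM in the frontal and from 2.67 to 10.04 CPM to 16.7 to 51.6 CPM in the parietal OF. Bmp6 changed by 1.36 ± 0.31, adjusted p = 0.00071 and 0.047 in the frontal OF and by 2.15 ± 0.32, adjusted p = 4.2e-07 and 0.003 in the parietal OF. Its frontal call was lost without either outlying embryo. Bmp7 fell in both, from 26.7 to 68.7 CPM to 9.81 to 32.5 CPM with overlap in the frontal OF and from 23.3 to 79.9 CPM to 9.95 to 15.8 CPM without overlap in the parietal OF. Bmp7 changed by −1.34 ± 0.32, adjusted p = 0.00099 and 0.019 in the frontal OF and by −1.81 ± 0.32, adjusted p = 2.1e-05 and 0.0031 in the parietal OF. Bmp2, Bmp3 and Bmp4 fell in the frontal OF (−1.21, −1.48 and −0.99), against −0.23, −0.08 and −0.24 in the parietal OF, where none passed. Bmp4 lost the call without E16.5 embryo 5 and with total counts in place of TMM. The difference between OFs passed for none of these 3 ligands (adjusted p = 0.067, 0.061 and 0.25 in the 100-library fit). Among the extracellular antagonists, Chrdl1 (chordin-like 1) fell in both OFs, from 32.03 to 118 CPM to 6.65 to 20.6 CPM in the frontal and from 18.49 to 129 CPM to 10.7 to 24.3 CPM in the parietal OF. Chrdl1 changed by −2.26 ± 0.30, adjusted p = 1.6e-08 and 0.0012 in the frontal OF and by −2.40 ± 0.30, adjusted p = 8.0e-09 and 0.0012 in the parietal OF. Grem1 (gremlin) and Chrd (chordin) rose in the parietal OF (6.46 ± 1.01, adjusted p = 1.3e-06 and 0.014 and 5.59 ± 0.80, adjusted p = 1.6e-07 and 0.026), Chrd with a second-library value of 0.78 against 5.49 for Grem1.

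Most WNT pathway genes that passed were secreted antagonists. Of 21 tested, 1 rose and 4 fell in the frontal OF and 1 fell in the parietal OF, with list medians of −0.41 and 0.13. For all genes, 1.81% rose and 3.24% fell in the frontal OF and 1.16% rose and 1.7% fell in the parietal OF. Sfrp1, a secreted frizzled-like antagonist, measured 79.9, 31.3, 78.7, 35.6 and 61.8 CPM at E16.5 and 9.63, 20.3, 21.5, 25.7 and 14.1 CPM at E18.5 in the frontal OF. Its parietal values were 81.1, 73.1, 52.4, 66.05 and 93.3 CPM at E16.5 and 16.7, 31.1, 13.3, 15.97 and 23.4 CPM at E18.5. It fell in both OFs without overlap. Sfrp1 changed by −1.65 ± 0.30, adjusted p = 1.9e-05 and 0.0012 in the frontal OF and by −1.86 ± 0.30, adjusted p = 3.1e-06 and 0.00067 in the parietal OF. The second libraries gave −1.34 and −1.31. Dkk1, which blocks the LRP5 and LRP6 co-receptors, fell in the frontal OF from 21.5 to 120.2 CPM to 2.87 to 15.01 CPM (−2.88 ± 0.52, adjusted p = 2.2e-05 and 0.0012), and overlapped in the parietal OF (−1.17 ± 0.49, adjusted p = 0.078 and 0.204). The difference between OFs passed for no gene of the WNT list in the 100-library fit. The WNT-binding antagonist Wif1 and the ligand Wnt5a also fell in the frontal OF (−0.81 ± 0.23, adjusted p = 0.0051 and 0.036 and −1.25 ± 0.26, adjusted p = 0.00017 and 0.012), the Wnt5a call was lost with the length trend removed, and the Wif1 call without E16.5 embryo 5 and with total counts in place of TMM. Sfrp4 rose there, from 0, 0, 0.231, 1.10 and 2.63 CPM at E16.5 to 2.87, 11.8, 13.5, 10.9 and 9.44 CPM at E18.5 (3.60 ± 0.75, adjusted p = 0.00017 and 0.019).

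Of 12 hedgehog pathway genes, the receptor Ptch1 and the transcription factor Gli3 fell and the co-receptor Cdon rose in the frontal OF (−0.89, −0.54 and 0.86), and none passed in the parietal OF (3 were lower and 0 higher at unadjusted p under 0.05 in the coronal edgeR fit). Of all 19768 genes, 3741 in the frontal and 3206 in the parietal OF were under that p in that fit, in either direction. The falls of Ptch1 and Gli3 were lost with the length trend removed and with total counts in place of TMM, and the rise of Cdon without E18.5 embryo 2. The ligand Ihh had −0.39 ± 0.56 and 0.01 ± 0.56, and the target Gli1 −0.20 ± 0.30 and 0.20 ± 0.30, and neither passed in either OF. None of 15 FGF pathway genes passed in either OF by edgeR. At unadjusted p under 0.05 in the coronal fit, 1 was higher and 1 lower in the frontal and 0 higher and 1 lower in the parietal OF, beside the 3741 and 3206 of all genes. None of 22 proliferation genes passed in either OF, with list medians of 0.05 and 0.06. At unadjusted p under 0.05 in the same fit, 5 in the frontal and 1 in the parietal OF were higher and 0 lower, beside the 3741 and 3206 of all genes. Of 23 genes whose mutation gives craniosynostosis in mice, Runx2 fell in both OFs and Pdgfra in the frontal OF (−0.57 ± 0.13, adjusted p = 0.00082 and 0.027), and none rose. At unadjusted p under 0.05 in the coronal edgeR fit, 4 were higher and 5 lower in the frontal and 1 higher and 3 lower in the parietal OF, beside the 3741 and 3206 of all genes. The Pdgfra call was lost without E18.5 embryo 2, with the length trend removed and with total counts in place of TMM. Of 18 NOTCH and ephrin genes, the receptor Notch3 fell in the parietal OF (−1.39 ± 0.25, adjusted p = 1.8e-05 and 0.021, lost with the length trend removed).

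**Figure D4:**
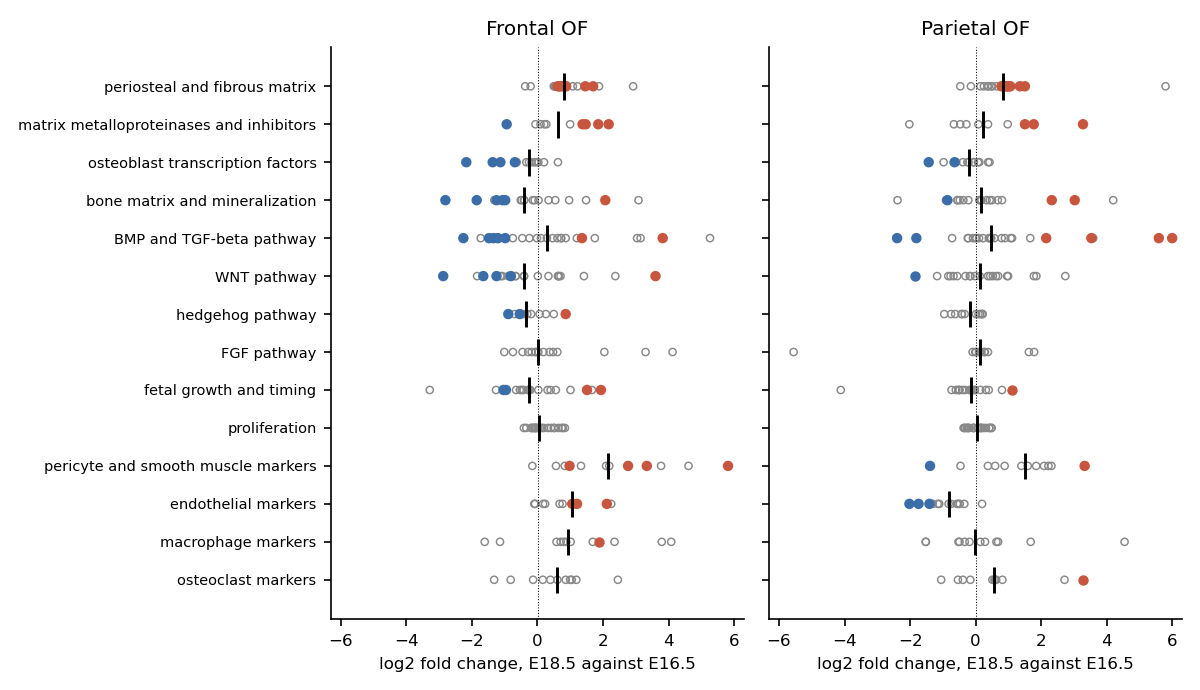
Log2 fold change, E18.5 less E16.5, of the tested members of 14 gene lists in the frontal and the parietal OF, with members that passed both fits filled, a black bar at each list's median and a dotted line at the median of all genes. The median of the fibrous matrix list lies above the dotted line in both OFs (0.82 and 0.85), that of the osteoblast transcription factors below it (−0.26 and −0.21), and 1 member is drawn at the limit of 6.

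Of 20 growth and fetal timing genes tested, Igf1 and Meg3 rose and Igf2 and Igf2bp1 fell in the frontal OF and H19 rose in the parietal OF, with list medians of −0.27 and −0.15. At unadjusted p under 0.05 in the coronal edgeR fit, 4 were higher and 5 lower in the frontal and 1 higher and 6 lower in the parietal OF. Of all 19768 genes, 3741 in the frontal and 3206 in the parietal OF were under that p, in either direction. Igf1, a growth factor of bone and connective tissue, measured 99.4, 131, 106, 55.3 and 123 CPM at E16.5 and 442, 279, 418, 468 and 361 CPM at E18.5 in the frontal OF. Those groups did not overlap (1.94 ± 0.30, adjusted p = 9.1e-07 and 0.00081), whereas the parietal groups did, at 39.8 to 105 CPM and 20.1 to 128 CPM (0.40 ± 0.29, adjusted p = 0.347 and 0.633). The difference between OFs was 1.54 ± 0.42, with adjusted p = 0.016 in the 100-library fit and 0.37 in the coronal fit. H19, an imprinted noncoding RNA of fetal tissue, measured 2976, 3090.1, 2507, 3341 and 2167 CPM at E16.5 and 5365, 7059.6, 5817, 5915 and 5974 CPM at E18.5 in the parietal OF. The ages were separate there (1.10 ± 0.16, adjusted p = 1.7e-07 and 0.0011), and the frontal value was 0.40 ± 0.16 (adjusted p = 0.049 and 0.238). Igf2, the fetal growth factor encoded beside H19, fell in the frontal OF (−1.04 ± 0.18, adjusted p = 1.2e-05 and 0.0062) but had 0.00 in the second libraries there and 0.89 in the parietal second libraries, against −0.60 in the first. Meg3 lost the call without E16.5 embryo 5, and Igf2bp1 with the length trend removed and with total counts in place of TMM.

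By the same rule for shared genes, the 12 named among those lower in both OFs were Gprin3, Tenm2, Bicd1, Scn3a, Prkaa2, Slc26a7, Paqr9, Ranbp3l, mt-Nd2, mt-Nd4, Tdrp and Angpt1. The rule passed 204 genes, 141 of which also passed the coronal fit; Tenm2 in the parietal and Tdrp in the frontal OF did not (adjusted p = 0.103 and 0.098). Gprin3 (chromosome 6, 59347226 to 59426294), which binds G protein alpha subunits, measured 83.8, 40.2, 80.9, 32.7 and 105 CPM at E16.5 and 7.90, 3.34, 3.18, 8.85 and 6.44 CPM at E18.5 in the frontal OF. Its parietal values were 84.6, 30.3, 53.3, 49.3 and 129 CPM at E16.5 and 3.50, 1.54, 2.19, 6.71 and 3.08 CPM at E18.5. Each E18.5 library lay below each E16.5 library of the same OF. Gprin3 changed by −3.52 ± 0.39, adjusted p = 3.0e-11 and 2.8e-05 in the frontal OF and by −4.35 ± 0.41, adjusted p = 1.0e-13 and 1.5e-05 in the parietal OF. Second libraries had −1.10 and −2.74. The OF change less the SM change was −2.15 ± 0.45, with adjusted p = 0.00097 in the 100-library fit and 0.195 in the coronal fit.

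Slc26a7 (chromosome 4, 14502430 to 14621805), an anion exchanger, measured 102, 89.5, 86.1, 60.9 and 377 CPM at E16.5 and 14.3, 11.2, 10.7, 12.02 and 13.1 CPM at E18.5 in the frontal OF. Its parietal values were 107, 32.9, 68.8, 102 and 201 CPM at E16.5 and 27.2, 19.2, 26.2, 22.5 and 13.2 CPM at E18.5. The ages were separate in both OFs (−3.54 ± 0.36, adjusted p = 2.3e-12 and 2.5e-05 and −2.24 ± 0.34, adjusted p = 7.0e-07 and 0.002), and E16.5 embryo 5 held the highest value of each OF. The voltage-gated sodium channel Scn3a was at 9.87 to 68.02 CPM against 0 to 1.48 CPM in the frontal and 14.5 to 41.6 against 0.583 to 8.22 CPM in the parietal OF. Scn3a changed by −5.60 ± 0.73, adjusted p = 8.6e-09 and 5.8e-05 in the frontal OF and by −2.53 ± 0.62, adjusted p = 0.0019 and 0.033 in the parietal OF. Its parietal call was lost without E16.5 embryo 5 and with the length trend removed. Prkaa2, a catalytic subunit of the energy sensor AMPK, and Angpt1, the angiopoietin ligand of the endothelial receptor TIE2, fell in both OFs, with −2.33 and −2.32 in the frontal and −2.27 and −1.72 in the parietal OF, with second-library values of −2.03, −1.70, −1.42 and −1.10. Paqr9, a membrane protein of the progestin and adipoQ receptor family, and Ranbp3l, a Ran-binding protein, had fold changes of −3.25 and −2.36 in the frontal and −2.20 and −2.10 in the parietal OF. The mitochondrial transcripts mt-Nd2 and mt-Nd4, which encode subunits of respiratory complex I, fell in both OFs, with −2.57 and −2.30 in the frontal and −1.97 and −1.93 in the parietal OF. Their second-library values were −0.31 and −0.30 in the frontal and −0.34 and −0.29 in the parietal OF. Both calls of Bicd1, an adaptor of the dynein motor, were lost without E16.5 embryo 5 and with the length trend removed, the frontal one also without E18.5 embryo 2.

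A test of the difference between the OFs asked which age changes were particular to one front. Neither fit had the embryo as a block, although both OFs come from the same embryos. The 100-library fit called 670 genes with a higher and 493 with a lower age change in the frontal than in the parietal OF (3.39% and 2.49%). With total counts in place of TMM it called 758 and 246, and with 1 replicate left out 308 to 859 were lower. The coronal fit called 3 and 0 (0.0152% and 0%), all 3 also called in the 100-library fit (1418 genes had an unadjusted p under 0.05 in the coronal edgeR fit, in either direction). These 3 were Aplnr, Pecam1 and Epas1, all known for expression in endothelium, and none passed in the coronal fit without E16.5 embryo 5 (1716 genes then had an unadjusted p under 0.05). With litter as a random effect in limma-voom, or with counts summed by litter in edgeR, no gene passed (1272 and 788 at unadjusted p under 0.05). They, and Sparcl1, Cav1 and Ptprb below, were singled out after the values were seen. Pecam1 (chromosome 11, 106654217 to 106750628), the adhesion molecule CD31 of endothelial cell contacts, measured 24.2, 24.1, 47.97, 25.1 and 22.7 CPM at E16.5 and 68.8, 41.2, 55.6, 88.4 and 78.6 CPM at E18.5 in the frontal OF. In the parietal OF it measured 61.6, 20.7, 21.5, 69.1 and 44.8 CPM at E16.5 and 13.1, 15.4, 15.9, 18.4 and 19.2 CPM at E18.5. It rose in the frontal OF, where E16.5 embryo 3 overlapped E18.5 embryo 2 (1.21 ± 0.26, adjusted p = 0.00024 and 0.024), and fell in the parietal OF without overlap (−1.41 ± 0.26, adjusted p = 3.6e-05 and 0.011). The frontal call was lost in the coronal fit without E16.5 embryo 5 and with counts summed by litter (adjusted p = 0.099), and the parietal call with litter as a random effect (adjusted p = 0.053). The difference was 2.62 ± 0.37, adjusted p = 1.0e-06 and 0.033.

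Aplnr (chromosome 2, 85136225 to 85139923), the apelin receptor of venous and sprouting endothelium, measured 124, 89.7, 52.5, 51.4 and 37.6 CPM at E16.5 and 94.5, 34.999, 34.9, 70.5 and 54.7 CPM at E18.5 in the frontal OF. Its parietal levels were 102, 48.8, 31.98, 65.1 and 72.5 CPM at E16.5 and 8.36, 4.36, 3.11, 8.29 and 5.05 CPM at E18.5. The frontal ages overlapped (−0.30 ± 0.38, adjusted p = 0.607 and 0.721), and the parietal ages were separate by a wide margin (−3.46 ± 0.42, adjusted p = 2.3e-09 and 1.7e-05). The difference was 3.16 ± 0.55, adjusted p = 8.9e-05 and 0.031. Epas1 (chromosome 17, 86753700 to 86833410), the hypoxia-inducible factor HIF-2alpha, was at 23.2 to 60.5 against 60.1 to 119.9 CPM in the frontal and 20.8 to 64.9 against 13.3 to 25.1 CPM in the parietal OF, with overlap in both. It rose in the frontal OF (1.33 ± 0.29, adjusted p = 0.00033 and 0.013) and fell in the parietal OF (−1.17 ± 0.29, adjusted p = 0.0023 and 0.039), and its parietal call was lost without either outlying embryo, with the length trend removed, with litter as a random effect and with counts summed by litter.

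With the embryo as a replicate block in the coronal fit, 5 genes had a higher (Aplnr, Epas1, Sparcl1, Cav1 and Ptprb) and 2 a lower frontal age change (Ibsp and Phex), 0.0253% and 0.0101% of those tested, and Pecam1 then had adjusted p = 0.072. Cav1 (caveolin-1), abundant in endothelium, measured 44.2, 42.3, 39.1, 28.1 and 49.5 CPM at E16.5 and 167, 119, 159.7, 208 and 234 CPM at E18.5 in the frontal OF. The parietal libraries overlapped, at 31.98 to 94.6 CPM and 38.7 to 130.4 CPM. It rose in the frontal OF (2.13 ± 0.27, adjusted p = 3.3e-09 and 9.5e-05), as did Sparcl1, a secreted SPARC-like protein (1.37 ± 0.23, adjusted p = 3.2e-06 and 0.00048), and Ptprb, the vascular endothelial phosphatase (1.92 ± 0.27, adjusted p = 5.0e-08 and 0.0019). Their parietal values were 0.19 ± 0.26, −0.26 ± 0.22 and −0.51 ± 0.26, none of which passed.

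**Figure D5:**
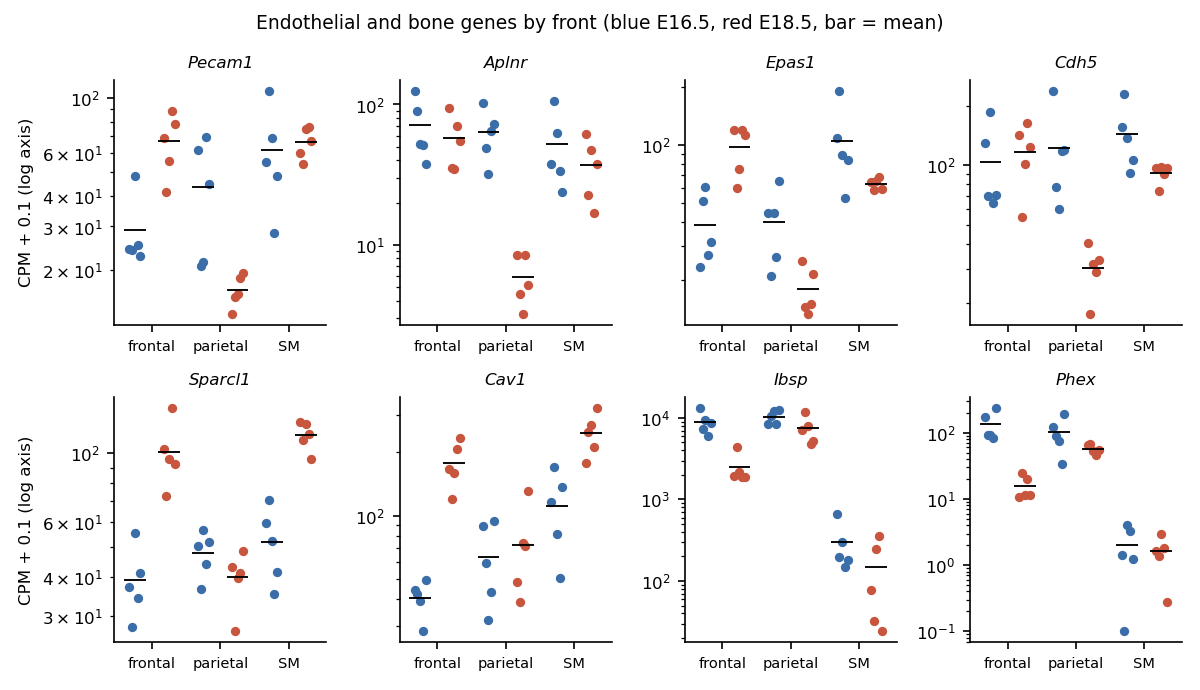
Levels (CPM plus 0.1, log axis) of 8 genes whose age change differed between the OFs in at least one fit, in each first library of the frontal OF, the parietal OF and the SM, with E16.5 in blue, E18.5 in red and bars at the group means. Aplnr and Cdh5 fall in the parietal OF without overlap of the ages, Cav1 and Sparcl1 rise in the frontal OF, Phex falls in the frontal OF, and the frontal ages of Ibsp and Phex do not overlap while their parietal ages do.

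Among all genes, 1.81% rose in the frontal OF and 1.7% fell in the parietal OF. The 13 endothelial markers as a list had 3 that rose in the frontal OF (Pecam1, Egfl7 and Eng) and 3 that fell in the parietal OF (Pecam1, Cdh5 and Emcn), with medians of 1.05 and −0.82. Their summed level was 248 to 474 CPM at E16.5 and 266 to 826 CPM at E18.5 in the frontal OF (adjusted exact permutation p = 0.106), and 160 to 671 CPM and 111 to 181 CPM in the parietal OF (adjusted exact permutation p = 0.0566). Cdh5 (VE-cadherin), which is restricted to endothelium, measured 238, 77.3, 60.1, 119 and 119 CPM at E16.5 and 40.3, 17.5, 31.5, 28.7 and 32.98 CPM at E18.5 in the parietal OF. The ages were separate there (−2.02 ± 0.30, adjusted p = 3.4e-07 and 0.0015), and in the frontal OF they overlapped (0.17 ± 0.29, adjusted p = 0.702 and 0.867). The parietal call of Emcn, a sialomucin of capillaries and veins, was lost without either outlying embryo and with the length trend removed (−1.74 ± 0.36, adjusted p = 0.00021 and 0.044).

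By the rule for front-specific genes, the 6 with the largest higher frontal age change in the 100-library fit were Timp4, Gja5, Etv4, Vwf, Gja4 and Slc16a9, and the 6 with a lower one Ngef, Rsph4a, Tmc3, Ccdc194, Itgb2 and Izumo4. None of the 12 passed the coronal fit, with adjusted p of 0.12 (Gja5) to 0.63 (Rsph4a). The arterial connexins Gja5 and Gja4 had differences of 9.51 ± 1.54 and 6.27 ± 1.21 in the 100-library fit (adjusted p = 3.8e-05 and 0.123 and 0.0004 and 0.358).

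Some markers of other cell types rose or fell in each OF. No summed marker level had an adjusted exact permutation p under 0.05 in the parietal OF. Besides Acta2 and Myh11, the pericyte genes Rgs5 and Pdgfrb rose in the frontal OF (2.76 ± 0.54, adjusted p = 8.0e-05 and 0.0025 and 0.98 ± 0.21, adjusted p = 0.00019 and 0.02), so that 4 of 12 pericyte and smooth muscle markers rose there and 1 rose and 1 fell in the parietal OF, with list medians of 2.14 and 1.495. By the 100-library fit alone 10 of them were higher and 0 lower in the frontal OF, and 8 higher and 1 lower in the parietal OF. At unadjusted p under 0.05 in the coronal edgeR fit, 9 were higher and 0 lower in the frontal OF, and 6 higher and 1 lower in the parietal OF. Of all 19768 genes, 3741 in the frontal and 3206 in the parietal OF were under that p, in either direction. Of 12 hypodermis and fibroblast markers, Cd34, Ly6a, Dpt, Fndc1 and Thy1 rose and Pdgfra fell in the frontal OF and Fndc1 and Thy1 rose in the parietal OF, with list medians of 1.89 and 1.49. Their summed level was 355 to 851 CPM against 1164 to 1458 CPM in the frontal OF and 478 to 648 CPM against 545 to 863 CPM in the parietal OF (adjusted exact permutation p = 0.0215 and 0.0566), and the adventitial marker Pi16 was at 0 to 1.19 CPM in the frontal OF at E18.5. Fndc1, a matrix protein with fibronectin type III repeats, measured 129, 175, 233, 107 and 35.2 CPM at E16.5 and 376, 476, 492, 451 and 440.1 CPM at E18.5 in the frontal OF. Parietal values were 129.8, 96.3, 87.5, 46.8 and 65.7 CPM at E16.5 and 245, 177, 286, 345 and 276 CPM at E18.5. The ages did not overlap in either OF. Fndc1 changed by 1.72 ± 0.23, adjusted p = 1.0e-08 and 0.0018 in the frontal OF and by 1.64 ± 0.23, adjusted p = 6.4e-08 and 0.0042 in the parietal OF. Dpt (dermatopontin), a collagen-binding protein of dermis, measured 10.8, 10.5, 8.49, 4.32 and 0.351 CPM at E16.5 and 69.05, 176, 112, 139 and 181 CPM at E18.5 in the frontal OF. Those ages were separate (4.29 ± 0.69, adjusted p = 1.9e-06 and 0.0012), and the parietal ages overlapped (1.94 ± 0.63, adjusted p = 0.02 and 0.154). The difference between OFs did not pass for Dpt, and in this list it passed for Cd34 alone, in the 100-library fit. These sums moved with the fibrous matrix genes above, and their part in that result was not tested.

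Osteoclast markers summed to 195.8 to 399 CPM and 406 to 563 CPM in the frontal OF (adjusted exact permutation p = 0.0215), although none of the 11 tested passed there (2 higher and 0 lower at unadjusted p under 0.05 in the coronal edgeR fit), and to 265 to 963 CPM and 381 to 542 CPM in the parietal OF, where the highest E16.5 value was that of embryo 5 and the other 4 lay at 265 to 399 CPM. Tnfrsf11b, the osteoclast inhibitor osteoprotegerin and 1 of 4 genes by which osteoblasts control osteoclasts, rose in the parietal OF (1.81 ± 0.42, adjusted p = 0.001 and 0.034, lost without E18.5 embryo 2). Macrophage markers summed to 102 to 174 CPM and 164 to 264 CPM in the frontal OF (adjusted exact permutation p = 0.0335), where C1qb of 12 tested rose (1.87, lost without either outlying embryo and with the length trend removed). In the parietal OF they summed to 141 to 178 CPM and 102 to 186 CPM. Of 15 cartilage markers, Acan (aggrecan) rose in both OFs (2.20 ± 0.25, adjusted p = 1.5e-10 and 0.00065 and 1.72 ± 0.25, adjusted p = 2.3e-07 and 0.0088), while the list's medians were −0.21 and −0.32. Of 11 dura mater markers, Cxcl12 and Foxc1 fell in the parietal OF (−2.84 ± 0.41, adjusted p = 1.8e-07 and 0.0077 and −1.59 ± 0.29, adjusted p = 2.4e-05 and 0.0058), and both calls were lost with litter as a random effect, that of Foxc1 also with counts summed by litter. Of 5 adipocyte markers, Car3 fell in the frontal OF (−1.88 ± 0.48, adjusted p = 0.0023 and 0.0025), and the summed markers were at 125 to 442 against 79.2 to 116 CPM in the frontal OF and 128 to 265 against 87.7 to 143.02 CPM in the parietal OF (adjusted exact permutation p = 0.0215 and 0.0566). Of 11 erythroid genes the embryonic globin Hba-x fell in the parietal OF (−7.50 ± 1.84, adjusted p = 0.0019 and 0.046, lost by limma-voom and without E18.5 embryo 2).

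Interferon-response genes rose in the frontal OF in 4 of 11 tested (Ifit3, Oasl2, Ifi27l2a and Ifi44), with list medians of 3.80 and 1.94. Among all genes, 1.81% rose in that OF. Oasl2, an interferon-induced antiviral protein, measured 0.058, 0, 0, 1.81 and 0 CPM at E16.5 and 10.5, 12.2, 9.21, 23.7 and 28.9 CPM at E18.5 in the frontal OF. The Ifit3 call was lost without E16.5 embryo 5 and with the length trend removed. The Oasl2 ages were separate there (5.43 ± 0.98, adjusted p = 1.7e-05 and 0.02), and in the parietal OF they overlapped (2.13 ± 0.85, adjusted p = 0.062 and 0.403). Of 16 hypoxia and glycolysis genes, Pgk1 rose in both OFs (1.01 and 1.12) and Pfkl, Aldoa and Ndrg1 rose in the parietal OF, with list medians of 0.45 and 0.77. Among all genes, 1.16% rose in the parietal OF and 0.501% in both. The calls of Pfkl and Ndrg1 were lost without E18.5 embryo 2. Both calls of Pgk1 were lost without E18.5 embryo 2 and with the length trend removed, and the frontal call of Pgk1 and that of Ndrg1 also without E16.5 embryo 5. The immediate early gene Ier3 rose in the parietal OF (2.41 ± 0.46, adjusted p = 6.8e-05 and 0.047, lost without E18.5 embryo 2 and with the length trend removed), with list medians of 0.70 and 0.58 over 14 genes.

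The OF changes were set against those of the SM of the same embryos to find age changes that differ between the fronts and the SM. In the 100-library fit, 769 genes had a higher and 733 a lower age change in the OFs (3.89% and 3.71%), and in both fits 2 and 21 (0.0101% and 0.106%). Neither fit had the embryo as a block, and with it the coronal fit called 8 and 50 (0.0405% and 0.253%). Socs1 and Tiam1 were the 2 with a higher OF change, and Col24a1, Mmp16, Ambn, Entpd3, Tnfrsf11b, Olfml3, Adam12 and Cdkn1c were among the 21 with a lower one; Tiam1, Olfml3, Adam12 and Cdkn1c were named after their values were seen. Socs1 (chromosome 16, 10782240 to 10785536), a suppressor of cytokine signalling, measured 1.78, 0.205, 0.577, 1.30 and 0.527 CPM at E16.5 and 59.4, 228, 0.967, 114 and 1.23 CPM at E18.5 in the frontal OF. For the parietal OF they were 1.07, 0.164, 0.058, 0.599 and 2.98 CPM at E16.5 and 128, 329, 140.2, 205 and 2.53 CPM at E18.5. The groups overlapped, because 3 E18.5 libraries (frontal embryos 3 and 5 and parietal embryo 5) lay at E16.5 levels while the other 7 lay at 59.4 CPM or above. The OF change less the SM change was 7.63 ± 1.08, adjusted p = 1.6e-06 and 0.023, the second libraries gave 0.39 and −0.20, and limma-voom did not call it in the frontal OF.

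Entpd3, a cell-surface nucleotide-hydrolysing enzyme, fell in the frontal OF from 20.95 to 55.5 CPM to 4.38 to 17.7 CPM (−2.03 ± 0.48, adjusted p = 0.001 and 0.003). The SM measured 0.858, 0.299, 0, 0 and 0 CPM at E16.5 and 5.91, 3.17, 2.75, 2.60 and 5.07 CPM at E18.5, without overlap and higher at E18.5. The OF change less the SM change was −5.38 ± 0.71, adjusted p = 2.8e-07 and 0.00039. For Tnfrsf11b the SM was at 0, 0, 0.083, 0 and 0 CPM at E16.5 and 3.52, 0.580, 2.07, 2.84 and 1.42 CPM at E18.5, again higher at E18.5 without overlap (OF change less SM change −4.80 ± 0.74, adjusted p = 6.2e-06 and 0.0039). The size of the Entpd3 and Tnfrsf11b differences depends on SM values near 0 at E16.5. Tnfrsf11b itself rose in the parietal OF. Mmp16 had a difference of −1.74 ± 0.21, adjusted p = 3.1e-08 and 0.00039. By rule, the named genes with a higher OF change were Socs1, Trim67, Lrrc7, Arpp21 and Chl1, and those with a lower one Ambn, Pcp4l1, Entpd3, Slc6a11 and Smlr1. Socs1, Ambn and Entpd3 passed both fits.

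Several lists had no member that passed in either OF by edgeR. These were the glucocorticoid-induced genes (13 tested; list medians 0.32 and 0.29), the mast cell (7; −0.33 and 0.56), skeletal muscle (9; 0.52 and 1.397), keratinocyte (3; −0.24 and 1.29) and neural markers (9; 0.29 and −0.99), and the 1 marrow marker tested (1.23 and 1.63). At unadjusted p under 0.05 in the coronal edgeR fit, 0 to 4 members of these lists were higher and 0 to 3 lower in an OF. Of all 19768 genes, 3741 in the frontal and 3206 in the parietal OF were under that p, in either direction. The summed skeletal muscle markers were nonetheless higher at E18.5 in the frontal OF (0 to 0.803 against 1.64 to 6.26 CPM, adjusted exact permutation p = 0.0215), and overlapped in the parietal OF.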

How the data were processed

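From laser-captured tissue the authors made amplified cDNA libraries, aligned reads to mm10 with STAR 2.5.3a and deposited raw counts of read pairs per GENCODE gene from featureCounts 1.6.4, made without regard to strand, so that overlapping antisense genes cannot be told apart. The count values are not normalized. Of 55487 genes, 19768 reached 1 CPM in more than 10% of the 100 first libraries, the threshold the authors applied to a larger set of libraries, and were scaled by TMM in edgeR 4.0.16 under R 4.3.3. The quasi-likelihood test was two-sided, with 1 mean per group and Benjamini-Hochberg adjustment at 0.05. Ages were compared within each OF, the OF changes with each other and with that of the SM. Library properties were compared by exact permutation of the group means (numpy 2.4.6), with adjustment in statsmodels 0.14.6. Named genes were the first 12 shared, 6 front-specific and 5 OF-less-SM genes per direction by fold change, with a group mean of at least 5 CPM and, for shared genes, no overlap of the ages; gene models without a common name, pseudogenes and small RNAs were not named. Members of 34 gene lists were also named; 1 gene is not reported here. Members and lists were chosen with earlier results of these data known. Replicate numbers did not pair the ages (median correlation of deviations 0.024, 0 of 10 pairs over 0.1), while both OFs of an embryo come from 1 animal (median 0.105). The calls of differences between regions came from fits without an embryo block, and the embryo served as the block in an alternative only. Alternatives were DESeq2 1.42.0, limma-voom 3.58.1, other scalings and filters, coronal libraries by themselves, litter as a random effect or summed, second libraries, length trends and each replicate left out. Total counts of 20713756 to 34518477 per library limit the precision of genes under about 1 CPM.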

Additional observations from a re-analysis of the deposited data

Results flagged for a closer look

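Of 224 groups of 5 values examined (a gene or library property in 1 OF at 1 age), 27 had a highest or lowest library far from the other 4; chance flags about 1 in 20. In the frontal OF at E16.5, embryo 5 stood apart with 34518477 counts (others at most 24724613), a mitochondrial share of 52.4% (others 30.6% to 34.9%), a share of the 50 most abundant genes of 60.8% (others 45.2% to 49.5%), 377 CPM of Slc26a7 and 0.351 CPM of Dpt. Embryo 1 was lowest there for Acta2 (3.17 CPM) and Tnn (320 CPM) and the only library with Ly6a (0.23 CPM), embryo 3 was highest for Pecam1 (48.0 CPM), and embryo 4 for Oasl2 (1.81 CPM). In the parietal OF at E16.5, embryo 4 was lowest for C1qtnf3 (1.24 CPM), and embryo 1 highest for Oasl2 (4.20 CPM) and for the share of haemoglobin counts (0.0177%).

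At E18.5, embryo 2 accounted for 10 of the 14 values that stood apart. In the frontal OF it was highest for Dlx3 (83.8 CPM), Ibsp (4431 CPM), Col1a1 (30224 CPM), Panx3 (782 CPM), Mmp2 (840 CPM), Bmp7 (32.5 CPM) and H19 (7790 CPM) and lowest for Ly6a (0.651 CPM), and in the parietal OF highest for Col1a1 (44352 CPM) and lowest for Igf1 (20.1 CPM). The other 4 were Sfrp4 in frontal embryo 1 (2.87 CPM) and, in the parietal OF, Myh11 in embryo 3 (0.923 CPM), Socs1 in embryo 5 (2.53 CPM) and the share of the 50 most abundant genes in embryo 1 (39.2%).

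For 36 named genes the age change differed between the OFs in at least one fit, as frontal less parietal log2 fold change. Aplnr (3.16), Pecam1 (2.62) and Epas1 (2.503) passed both fits. Sparcl1 (1.63), Cav1 (1.94), Ptprb (2.42) and Phex (−2.27) passed the 100-library fit and the coronal fit with the embryo as a block, and Ibsp (−1.36) only the latter. The rest passed the 100-library fit alone. Among endothelial, mural and stromal genes these were Cdh5 (2.19), Emcn (1.98), Egfl7 (2.65), Myh11 (3.59), Cd34 (1.43), Cxcl12 (3.44), Notch3 (1.23) and Fbn1 (1.195). Further named genes were Mmp11 (2.84), Igf1 (1.54), Ifi27l2a (7.00), Scn3a (−3.08), Col24a1 (−0.996), Chrd (−7.33), H19 (−0.70) and Aldh1l2 (−1.06), a mitochondrial folate enzyme. Those named for their size alone were Timp4 (11.92), Gja5 (9.51), Etv4 (8.85), Vwf (6.37), Gja4 (6.27), Slc16a9 (6.02), Ngef (−7.05), Rsph4a (−6.42), Tmc3 (−5.14), Ccdc194 (−4.82), Itgb2 (−4.56) and Izumo4 (−4.48).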

How the results depend on the processing

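Genes called by the 100-library fit numbered 4819 in the frontal OF, 4039 in the parietal OF, 1633 shared, 1163 front-specific and 1502 in the OF change less the SM change. The coronal libraries by themselves gave, in that order, 1004, 569, 296, 3 and 23, and with the coronal filter 1011, 630, 323, 3 and 26. With the length trend removed the numbers were 862, 491, 259, 3 and 24, without E16.5 embryo 5 they were 904, 699, 319, 0 and 31, and without E18.5 embryo 2 they were 865, 387, 225, 6 and 38; these settings, like the coronal replicate block, were chosen after seeing the data. Litter as a random effect gave 1288, 723, 350, 0 and 10 and counts summed by litter 255, 161, 85, 0 and 4, where 1272 and 788 front-specific genes had an unadjusted p under 0.05. The random-effect fit was limma-voom on the coronal libraries, with a consensus correlation within litters of 0.006 in the OF libraries. It changed the model as well as adding litter, and why calls were lost in it was not tested. Second libraries in place of the first gave 2098, 1546, 437, 440 and 479 and by themselves 595, 96, 48, 12 and 19. The replicate block gave 7 front-specific and 58 OF-less-SM genes in the coronal libraries, and 4984, 4173, 1754, 1198 and 2003 in the 100-library fit, where the numbers do not pair the ages. Leaving out 1 replicate gave 4214 to 6075, 3405 to 4573, 1343 to 1853, 813 to 2060 (highest without E16.5 replicate 4) and 1143 to 2186.

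Of 249 single-gene results under up to 28 alternatives, 43 kept direction and call in all and 232 never turned. Those that turned were, with second libraries only and, where 2 values follow, also with the second library in place of the first: frontal Gli3 (0.13), Aldoa (−0.22) and Ifit3 (−0.22 and −0.14); parietal Tcim (−0.46), Wnt5a (0.84 and 0.040), Igf2 (0.89 and 0.59), Myh11 (−0.69) and Socs1 (−0.20); Socs1 in the OF change less the SM change (−0.28); and front-specific Etv4 (−2.50 and −2.90), Slc16a9 (−1.60 and −0.11), Ngef (1.30 and 0.73), Tmc3 (3.65 and 1.95), Itgb2 (2.01 and 2.45) and Izumo4 (0.71 and 0.41). By limma-voom and with litter as a random effect, frontal Chrd (0.13 and 0.11) and front-specific Itgb2 (0.19 and 0.22) turned, Itgb2 also with the coronal replicate block (0.56). Leaving out 1 replicate gave −11.04 to 1.27 for Ngef and −5.29 to 1.2 for Itgb2 (both turned without E16.5 replicate 3) and −1.11 to 7.86 for Vwf (turned without E16.5 replicate 1). The causes were not tested. Of the 98 frontal and 71 parietal named changes that passed both fits, counts summed by litter lost 47 and 35 (in both OFs Actg2, Bicd1, Bmp6, C1qtnf3, Ndst3, P4ha3, Pgk1, Plekhf1, Plod3, Postn, Prkaa2 and Thy1; in the frontal OF also Adamtsl4, Ambn, Bmp2, Bmp4, Bmp7, C1qb, Cdon, Chad, Col1a1, Dcn, Dlx5, Eng, Gli3, Ifi27l2a, Ifi44, Ifit3, Igf2, Igf2bp1, Ly6a, Meg3, Mmp11, Mmp16, Mmp23, Oasl2, Omd, Pdgfra, Pdgfrb, Pecam1, Ptch1, Ptx4, Sfrp4, Spock1, Stmn4, Wif1 and Wnt5a; in the parietal OF also Acan, Angpt1, Aspn, Chrd, Col24a1, Dlx3, Emcn, Epas1, Foxc1, Grem1, Hba-x, Ier3, Mmp9, Ndrg1, Notch3, Pfkl, Plod2, Ranbp3l, S100a4, Scn3a, Spp1, Tdrp and Tnfrsf11b) and litter as a random effect 8 (Ambn, Chad, Col1a1, Egfl7, Ifit3, Meg3, Socs1 and Wif1) and 10 (Bicd1, Cxcl12, Emcn, Epas1, Foxc1, Hba-x, Notch3, Pecam1, Socs1 and Spp1). Second libraries in place of the first lost 20 and 18 (in both OFs Crip1, Dlx3, P4ha3, Pgk1, Plekhf1, Thy1 and Timp1; in the frontal OF also Bmp4, Chad, Col1a1, Egfl7, Gli3, Ifi27l2a, Ifit3, Igf2, Mmp11, Mmp23, Pdgfrb, Plod3 and Ptch1; in the parietal OF also Chrd, Ier3, Mmp9, mt-Nd2, mt-Nd4, Notch3, Paqr9, Pfkl, Ranbp3l, Runx2 and Tnfrsf11b), second libraries only 50 and 53, coronal libraries without E16.5 embryo 5 lost 16 and 9, without E18.5 embryo 2 13 and 12 and with the length trend removed 12 and 10, total counts in place of TMM 9 and 1. A sex covariate from Xist was not run, since Xist was below the filter. In the first OF libraries Xist was at 0 to 3.53 CPM and the Y-encoded Ddx3y at 29.0 to 87.7 CPM, so that both ages read as male. Age and litter cannot be told apart, and 5 embryos per group limit the exact p to 0.00794.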
